A study of Mus musculus with 5 samples.

Results

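The genes of the mitochondrial ribosomal proteins were measured in hearts of Akita and wild type (WT) mice. Members were all genes whose probe set carried a single symbol beginning with Mrpl or Mrps and a digit, with the brightest probe set taken where a gene had several. The rule found 71 of the 22180 genes on the array, 43 of the large subunit (Mrpl) and 28 of the small subunit (Mrps). The genes were picked by name, and signal, averaged over all 5 arrays whatever their group, decided only which probe set stood for a gene. A further 7 genes of the family (Mrpl30, Mrpl33, Mrpl41, Mrpl43, Mrpl44, Mrpl53 and Mrps6) were on probe sets shared with another symbol and are no members.

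The study compared heart RNA of 2 groups, both male, 12 weeks old and on the C57BL/6 background, on whole-transcript arrays with 1 colour. The Akita group held 2 arrays (replicates 1 and 3) from mice with a mutation in the insulin 2 gene (Ins2), a model of type 1 diabetes, and the WT group held 3 arrays (replicates 3, 4 and 5). The mutation is present in every cell of the body, misfolded proinsulin harms the pancreatic beta cells, and no heart-specific driver is involved. Whether the arrays stand for different animals is not in the labels, and the p-values therefore rest on differences among these 5 arrays, part of which may be technical.

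Mitochondria hold their own ribosomes, which translate the few proteins encoded in mitochondrial DNA, all of them subunits of the respiratory chain and ATP synthase. The ribosomal RNAs come from mitochondrial DNA, whereas the ribosomal proteins are encoded in the nucleus and imported. Some of these proteins have relatives in bacterial ribosomes and others occur in mitochondria alone. Heart muscle is rich in mitochondria and depends on this translation for its ATP supply.

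The data bear on these genes as a group. The sequence ahead of the start site is shown first for a few members, picked by p or by a motif match. They do not represent the group. RefSeq promoter sequences of build GRCm38.p6 were matched for 62 of the 71 members, with 68 promoters of 300 bases (250 before and 50 after the start). Mrpl10, Mrpl37, Mrps21 and Mrps2 had the smallest p of their subunits, and Mrpl17 and Mrps27 are added because they show a motif match. The 120 bases before the start lie at chr11:97041462-97041581 (+ strand) for Mrpl10, chr4:107066867-107066986 (- strand) for Mrpl37, chr7:105811088-105811207 (- strand) for Mrpl17, chr3:95871515-95871634 (- strand) for Mrps21, chr2:28467946-28468065 (+ strand) for Mrps2 and chr13:99344666-99344785 (+ strand) for Mrps27. Capitals mark matches on either strand to GCGCNNGCG, taken from the site of nuclear respiratory factor 1 (NRF1), or to CCGGAAG, the core of ETS family sites.
Mrpl10: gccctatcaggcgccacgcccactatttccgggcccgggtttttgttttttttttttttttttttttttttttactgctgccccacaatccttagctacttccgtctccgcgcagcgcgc
Mrpl37: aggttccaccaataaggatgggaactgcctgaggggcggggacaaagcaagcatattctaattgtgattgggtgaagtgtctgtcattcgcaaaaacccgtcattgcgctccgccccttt
Mrpl17: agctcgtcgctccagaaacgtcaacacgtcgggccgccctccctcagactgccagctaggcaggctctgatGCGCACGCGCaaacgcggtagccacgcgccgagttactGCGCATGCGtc
Mrps21: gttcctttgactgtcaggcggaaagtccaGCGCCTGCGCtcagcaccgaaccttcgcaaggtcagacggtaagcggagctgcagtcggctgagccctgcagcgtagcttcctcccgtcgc
Mrps2: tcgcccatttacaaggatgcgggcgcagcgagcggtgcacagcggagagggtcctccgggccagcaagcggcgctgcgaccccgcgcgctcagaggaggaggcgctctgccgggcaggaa
Mrps27: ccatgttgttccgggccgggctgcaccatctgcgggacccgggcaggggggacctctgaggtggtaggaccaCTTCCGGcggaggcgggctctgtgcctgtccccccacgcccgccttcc

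In these windows Mrpl17 and Mrps21 hold NRF1 matches and Mrps27 an ETS match, while the windows of Mrpl10, Mrpl37 and Mrps2 hold no such letters. Mrpl10 has an NRF1 match farther upstream, at bases -135 to -127 from the start, and Mrps21 an ETS match past the start, at bases 19 to 25. The YY1 motif AAGATGGCG lies past the start in Mrpl37 (bases 27 to 35) and Mrps27 (bases 15 to 23). Over the 300 bases of the 68 member promoters, searched on both strands, the NRF1 motif was found in 26.5%, the ETS motif in 33.8% and the YY1 motif in 11.8%. Over all 32851 promoters of that length the shares were 12.1%, 8.86% and 1.40%, and over the 15162 promoters of the genes tested 20.7%, 14.2% and 2.37%, in the same order of motifs. No match of one motif overlapped a match of another in the member promoters. The median log2 difference (Akita minus WT) was -0.20 in the 23 members with an ETS match and -0.16 in the 38 without one, and -0.15 in the 18 members with an NRF1 match and -0.18 in the 43 without one. These shares and medians are descriptions, and a match is not evidence of a bound site.

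Of the 71 members, 70 passed the filter on dim genes, set at the 30th percentile of the genes' mean log2 signal, 4.06. Mrps14 fell just under it, at log2 signals of 4.36 and 3.42 in Akita and 4.18, 4.08 and 4.25 in WT hearts. Mrpl27 lay just above it, at 4.42 and 4.37 in Akita and 4.42, 4.33 and 4.10 in WT hearts, with overlapping groups. Signals are per probe set and give no order of transcript amounts between genes. Ventricular and general cardiomyocyte markers were high in every heart, with a summed level (log2 of the sum of linear signals over 6 genes) of 14.97 in both Akita arrays and 15.02 to 15.07 in WT arrays. The brightest genes carry most of that sum. The list itself had a median log2 difference of -0.11, with Myl2 lowest at -0.245 and Myh6 at 0. In 5 of its 6 genes both Akita arrays lay below all WT arrays, where 19.9% of all genes tested did. By limma 0 of the 6 had an unadjusted p under 0.05. The part of this list in the mitoribosomal differences was not tested.

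Most mitoribosomal genes lay lower in Akita than in WT hearts, and no single gene passed the test. Of the 70 genes tested, 61 lay lower (87.1%) and 9 higher, where 56.4% of all 15528 genes tested lay lower. The median log2 difference (Akita minus WT) was -0.18, against -0.03 over all genes tested. By limma with Benjamini-Hochberg adjustment over all genes, 0 members had an adjusted p under 0.05, where 0.328% of all genes tested did. At an unadjusted p under 0.05, 16 members (22.9%) were lower and 0 higher, where 9.49% and 4.13% of all genes tested were. In 37 members (52.9%) both Akita arrays lay below all 3 WT arrays and in 2 above them, where 19.9% and 9.89% of all genes tested did. Fewer cells of a type and less RNA per cell cannot be told apart in whole heart tissue.

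**Figure D1:**
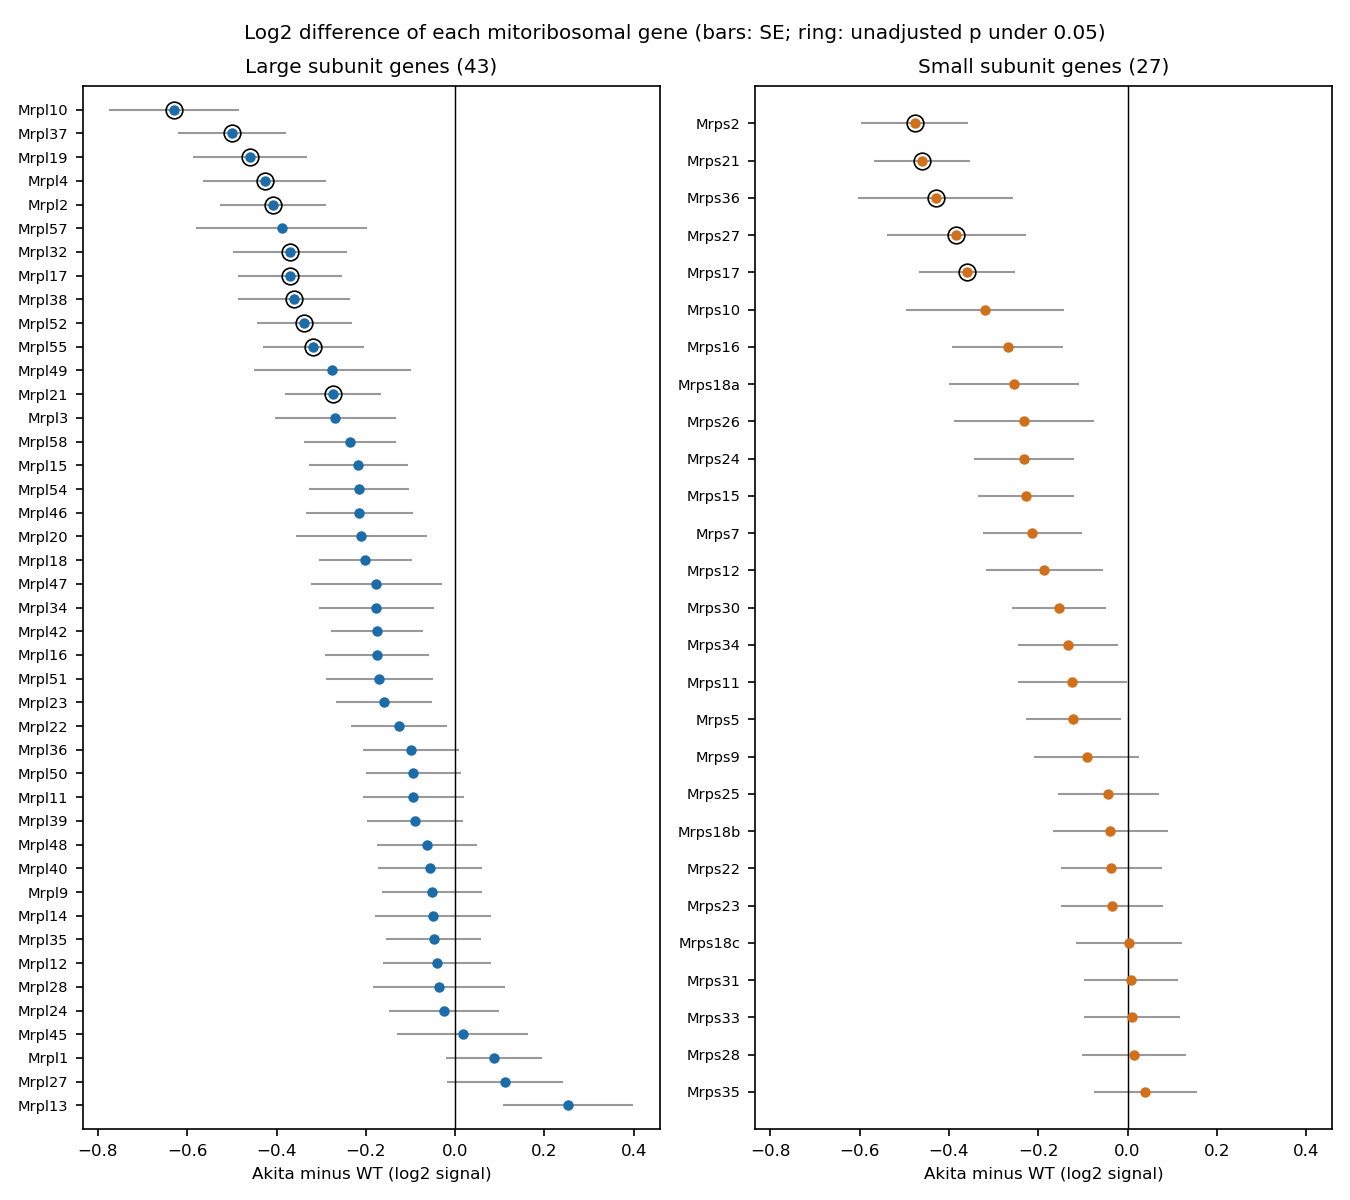
Log2 difference (Akita minus WT, x axis) of each of the 43 large and 27 small subunit genes tested, with its standard error, ordered by size. Points left of 0 are lower in Akita hearts, 39 of the large (90.7%) and 22 of the small subunit (81.5%), where 56.4% of all genes tested lay lower. Rings mark the 11 large and 5 small subunit genes with an unadjusted p under 0.05.

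Other genes of similar signal lay lower in Akita hearts too, and the 2 Akita arrays differed in this. Non-members within the interquartile range of the members' mean signal (7.13 to 8.45, 3141 genes) had a median difference of -0.09. Of them 70.7% lay lower, against 28 of the 34 members in that range. At an unadjusted p under 0.05, 14.2% of these non-members were lower, against 10 of the 34 members (29.4%). In that range the groups did not overlap, with Akita lower, in 17 of the 34 members (50%), and in 29.4% of the non-members.

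Relative to the WT mean, the median deviation in Akita replicate 1 was -0.17 for the large subunit, -0.10 for the small subunit and -0.17 for the non-members of similar signal. In Akita replicate 3 it was -0.17 for the large subunit, -0.16 for the small subunit and -0.01 for those non-members. The members thus stood no lower than other genes of similar signal in Akita replicate 1, but stood lower than those genes in Akita replicate 3. Akita replicate 1 lay below all 3 WT arrays in 40 of 70 members (57.1%), where 43.4% of all genes tested and 64.9% of the non-members of similar signal did. Akita replicate 3 did so in 51 of 70 members (72.9%), where 29.5% and 33.4% did. Without Akita replicate 3, 13 members (18.6%) were lower at an unadjusted p under 0.05, against 22.2% of the non-members of similar signal, and without Akita replicate 1, 9 members (12.9%) were, against 6.69%.

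**Figure D2:**
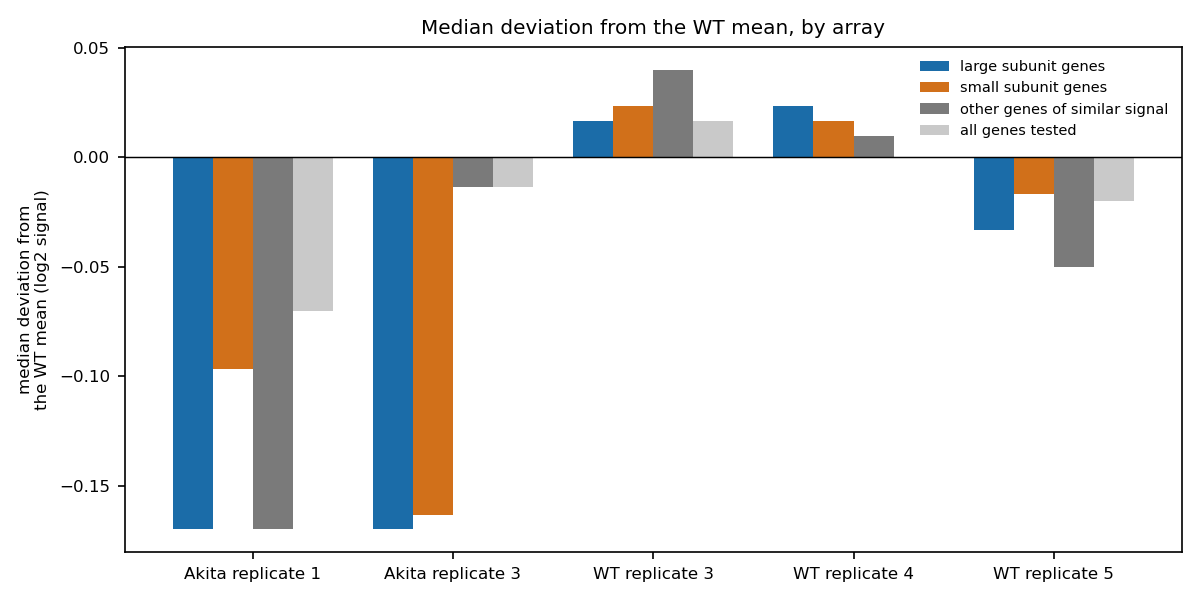
Median deviation of log2 signal from the WT mean of each gene, per array, for large subunit genes, small subunit genes, other genes of similar signal and all genes tested. In Akita replicate 1 the large subunit and the other genes of similar signal both stand at -0.17, whereas in Akita replicate 3 both subunits stand at -0.17 and -0.16 and the other genes at -0.01.

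**Figure D3:**
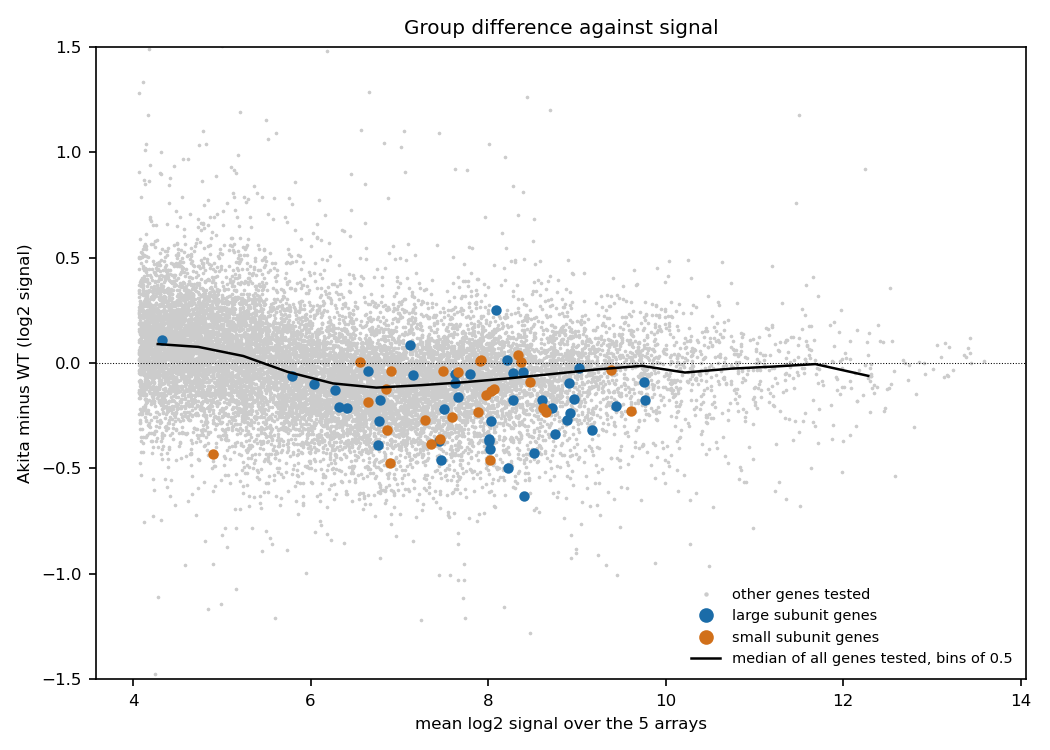
Log2 difference (Akita minus WT, y axis) against mean log2 signal (x axis) for the genes tested, with large and small subunit genes in colour and the median of all genes tested in signal bins of 0.5 as a line. Of the 70 coloured points, 51 lie below the median of their bin, and 26 genes with differences beyond 1.5 lie outside the axis.

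Markers of other cell types differed between the arrays as well. The 4 atrial myocyte markers had a summed level of 12.32 in Akita replicate 1 and 13.80 in Akita replicate 3, against 12.07 to 12.19 in WT arrays. Nppa, at 12.21 and 13.39 in Akita and 11.79 to 11.98 in WT, carries most of that sum. In Akita replicate 1, Myl7 (6.55) and Sln (6.71) lay below all WT arrays (7.83 to 8.10 and 7.74 to 8.13). Myl4 lay inside the WT range there. In Akita replicate 3 all 4 lay above every WT array. The 4 fibroblast markers stood at 12.02 and 12.35, against 11.93 to 11.99, and Dcn carries most of that sum. In Akita replicate 1, Pdgfra (8.64) lay above all WT arrays (8.45 to 8.55), while Dcn, Col1a1 and Col3a1 lay inside the WT range. All 4 lay above every WT array in Akita replicate 3. The 4 white adipocyte markers, among them Adipoq near the filter at 3.93 and 4.11 in Akita and 3.58 to 4.05 in WT, stood at 7.12 and 7.51, against 6.76 to 6.82. The 4 macrophage markers stood at 8.49 and 8.86, against 8.93 to 9.12. Cd68 and Adgre1 lay below all WT arrays in both Akita arrays, Csf1r in Akita replicate 1 only, and Fcgr1 in neither. The part of these lists in the mitoribosomal differences was not tested. Median differences over the other marker lists were 0.12 for endothelial (4 genes tested), 1.06 for brown adipocyte (2), 0.23 for erythroid (1), -0.19 for lymphoid or thymus (3) and 0.31 for liver (1), with 0 genes past the adjusted threshold in any marker list.

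Both subunits had medians below that of all genes, and the difference between the subunits was not tested. The median difference was -0.18 over the 43 large subunit genes (39 lower, 90.7%, and 4 higher). It was -0.15 over the 27 small subunit genes tested (22 lower, 81.5%, and 5 higher). Among all genes tested 56.4% lay lower, and among the non-members of similar signal 70.7%. The gap between these medians, -0.02, was smaller than its spread between arrays of a group (pooled SD 0.029), but it was -0.073 without Akita replicate 3 and 0.035 without WT replicate 3. At an unadjusted p under 0.05, 11 large (25.6%) and 5 small subunit genes (18.5%) were lower. Of all genes tested 9.49% were, and of the non-members of similar signal 14.2%. Non-overlapping groups with Akita lower were seen in 25 large (58.1%) and 12 small subunit genes (44.4%). The shares to set beside are 19.9% of all genes tested and 29.4% of the non-members of similar signal. Within each array the large minus small gap in median deviation was -0.07 and -0.01 in the 2 Akita arrays (replicate 1 first), against values between -0.02 and 0.01 in the 3 WT arrays.

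Among the large subunit genes, Mrpl10, which encodes a protein of the stalk that recruits translation factors, had the lowest difference. Its signal was 7.83 and 8.23 in Akita replicates 1 and 3, against 8.72, 8.69 and 8.57 in WT hearts. Both Akita arrays lay below every WT array, Akita replicate 1 by more. The means were 8.03 ± 0.28 (SD, n = 2) in Akita and 8.66 ± 0.08 (SD, n = 3) in WT hearts, a log2 difference of -0.63 (SE 0.14, limma adjusted p = 0.165). A second, dimmer probe set of Mrpl10 differed by -0.01, at 4.85 in the Akita mean and 4.86 in the WT mean.

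Mrpl37, a protein found in mitochondrial ribosomes alone, lay at 7.87 and 7.97 in Akita and 8.50, 8.48 and 8.28 in WT hearts. The groups stood apart, with a log2 difference of -0.50 (SE 0.12, limma adjusted p = 0.174). Mrpl19, of the face toward the small subunit, lay at 7.16 and 7.22 in Akita and 7.83, 7.55 and 7.57 in WT hearts, a difference of -0.46 (limma adjusted p = 0.215). Its Akita arrays were close together and its WT arrays were spread by WT replicate 3.

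Mrpl2 and Mrpl4 belong to the conserved core, near the peptidyl transferase centre and the exit tunnel. Mrpl2 lay at 7.66 and 7.89 in Akita and 8.23, 8.18 and 8.14 in WT hearts (difference -0.41). Mrpl4 lay at 8.33 and 8.19 in Akita and 8.77, 8.81 and 8.48 in WT hearts (difference -0.43). In both genes the groups did not overlap, and the limma adjusted p was 0.231 for Mrpl2 and 0.269 for Mrpl4. Mrpl32, whose protein is matured by the m-AAA protease before it joins the ribosome, lay at 7.21 and 7.25 in Akita and 7.61, 7.75 and 7.44 in WT hearts (difference -0.37). Mrpl17, a conserved protein near the exit tunnel, lay at 7.84 and 7.74 in Akita and 8.23, 8.21 and 8.04 in WT hearts (difference -0.37). Mrpl52, specific to mitochondria, had closely spaced arrays, at 8.50 and 8.61 in Akita and 8.91, 8.87 and 8.90 in WT hearts (difference -0.34, limma adjusted p = 0.255). The remaining large subunit genes lower at an unadjusted p under 0.05 were Mrpl38, Mrpl55 and Mrpl21, with differences of -0.36, -0.32 and -0.27.

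Among the small subunit genes, Mrps21, a conserved protein, was lowest by p. It lay at 7.75 in both Akita arrays, against 8.27, 8.23 and 8.13 in WT hearts. The log2 difference was -0.46 (SE 0.11, limma adjusted p = 0.168), and the groups stood apart by more than the range of either. Mrps2, another conserved protein, lay at 6.58 and 6.64 in Akita and 7.17, 7.15 and 6.94 in WT hearts, a difference of -0.48 (SE 0.12, limma adjusted p = 0.189). Its Akita mean was 6.61 ± 0.04 (SD, n = 2) and its WT mean 7.09 ± 0.13 (SD, n = 3).

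Mrps17, a conserved protein, lay at 7.18 and 7.30 in Akita and 7.63, 7.56 and 7.61 in WT hearts (difference -0.36, limma adjusted p = 0.239). Its second probe set differed by -0.33. Mrps27, a pentatricopeptide repeat protein, lay at 7.03 and 7.23 in Akita and 7.76, 7.46 and 7.32 in WT hearts (difference -0.38, limma adjusted p = 0.347). Its groups did not overlap, but WT replicate 5 was within 0.1 of Akita replicate 3. Mrps16 differed by -0.27 and its second probe set by -0.27, both with Akita below all WT arrays. Mrps15 lay at 9.53 and 9.42 in Akita and 9.75, 9.67 and 9.69 in WT hearts (difference -0.23), and Mrps24, which lies at the mRNA entry, at 8.44 and 8.59 in Akita and 8.79, 8.76 and 8.69 in WT hearts (difference -0.23).

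**Figure D4:**
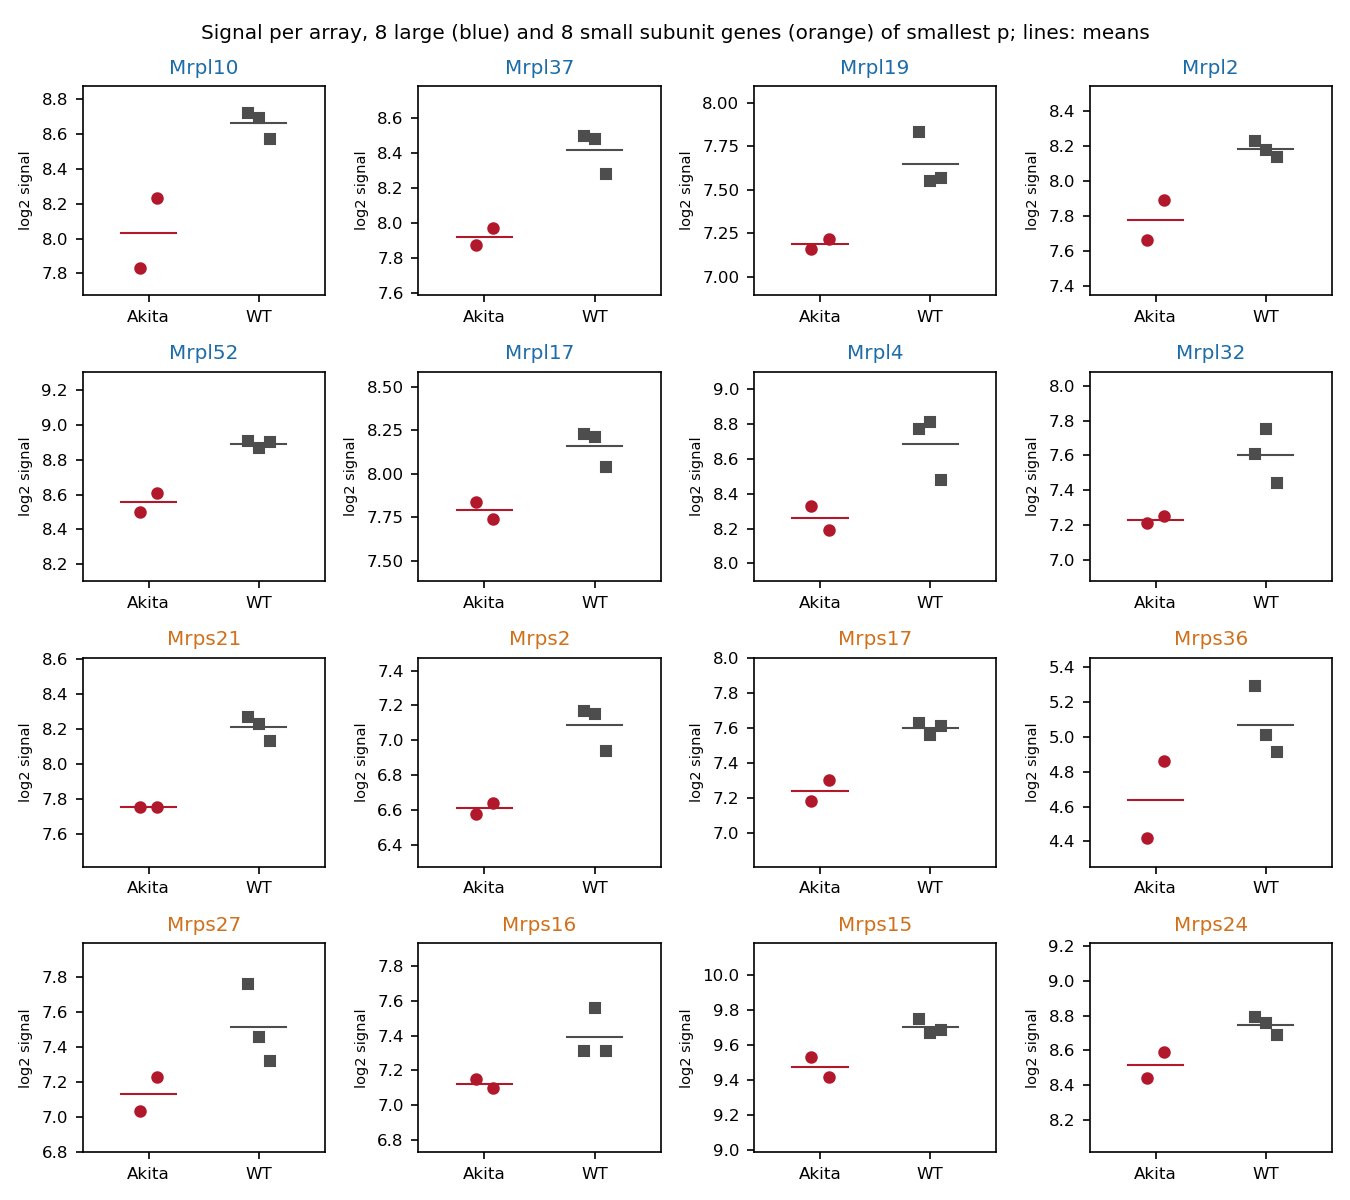
Log2 signal per array (points) and group means (lines) for the 8 large and 8 small subunit genes of smallest p, Akita at the left and WT at the right of each panel, every panel spanning the same height. In all 16 panels both Akita arrays lie below the 3 WT arrays, which picking by p favours. Over all members tested the share was 52.9%, and over all genes tested 19.9%.

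A few symbols of the family do not follow their subunit name. The proteins of Mrps30 and Mrps18a sit in the large subunit of the mammalian ribosome, and that of Mrps36 is known as a component of the oxoglutarate dehydrogenase complex. Mrps30 lay at 7.88 and 7.90 in Akita and 8.02, 8.01 and 8.10 in WT hearts (difference -0.15, limma adjusted p = 0.569), with no overlap. Mrps36 lay at 4.42 and 4.86 in Akita and 5.29, 5.01 and 4.91 in WT hearts (difference -0.43, limma adjusted p = 0.346). Without Akita replicate 1 its difference was -0.21, and without Akita replicate 3 it was -0.65. With Mrps30 and Mrps18a counted in the large subunit and Mrps36 left out, the medians were -0.18 (large) and -0.13 (small subunit). That gap, -0.048, was not tested, and the spread between arrays given above is that of the division by symbol.

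Mrps18a, Mrps18b and Mrps18c are 3 paralogues related to a single bacterial ribosomal protein. Mrps18a lay at 7.47 and 7.42 in Akita and 7.45, 7.82 and 7.83 in WT hearts, so that WT replicate 3 fell among the Akita arrays (difference -0.26). Mrps18b lay at 7.51 and 7.42 in Akita and 7.37, 7.68 and 7.46 in WT hearts (difference -0.04). Mrps18c lay at 6.64 and 6.48 in Akita and 6.66, 6.55 and 6.46 in WT hearts (difference 0.003), while its second, dimmer probe set differed by -0.33. All 3 pairs of groups overlapped, and no difference between the paralogues was tested.

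Other members showed little difference or lay higher. Mrpl12, a stalk protein that also binds mitochondrial RNA polymerase, lay at 8.47 and 8.26 in Akita and 8.32, 8.49 and 8.41 in WT hearts (difference -0.04); the difference between it and Mrpl10, its partner in the stalk, was not tested. Mrpl13 and Mrpl1 were the members with both Akita arrays above all WT arrays, and both were named after its values were seen. Mrpl13 lay at 8.23 and 8.25 in Akita and 7.75, 8.18 and 8.03 in WT hearts (difference 0.25, limma adjusted p = 0.494). Mrpl1 lay at 7.20 and 7.14 in Akita and 7.02, 7.12 and 7.11 in WT hearts (difference 0.09, limma adjusted p = 0.769). In all, 24 members differed by less than 0.1 in either direction. They included the mitochondria-specific Mrpl39 (-0.09) and Mrps23 (-0.04), as well as Mrpl36 (-0.098) and Mrpl48 (-0.06).

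Some genes were measured with little spread. Mrpl42 lay at 9.70 and 9.63 in Akita and 9.83, 9.85 and 9.84 in WT hearts (difference -0.18), and Mrpl18, which binds structural RNA of the central protuberance, at 9.31 and 9.32 in Akita and 9.55, 9.52 and 9.48 in WT hearts (difference -0.20). In both, the Akita arrays lay below all WT arrays. Over the members tested, the median gap between the 2 Akita arrays was 0.09 and the median range of the WT arrays 0.17. The gap between Akita arrays was widest in Mrps10, at 6.42 in Akita replicate 1 and 6.92 in Akita replicate 3, against 6.85 to 7.18 in WT hearts. Mrps26 ran the other way, at 7.99 and 7.50, against 7.93 to 8.03 in WT hearts, so its difference of -0.23 rests on Akita replicate 3. Across the 70 genes, deviations from the WT mean in the 2 Akita arrays had Pearson's r = 0.60 (Spearman's rho 0.63), a description only, since both arrays share the same WT mean.

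Of 9 members with a second probe set, 8 had the same sign on both, and Mrps18c was the exception. In Mrpl10, Mrps18b and Mrps5 the second probe set differed by only -0.013, -0.003 and -0.005. That of Mrps5 was dim, with a mean signal of 3.90. Mrpl47 differed by -0.18 on the probe set used and -0.56 on the other, which lay at 4.88 and 5.38 in Akita and 5.96, 5.51 and 5.59 in WT hearts. Of the 13 probe sets that carry a family symbol beside another gene's, 10 lay lower and 3 higher in Akita, with a median of -0.07. Of all genes tested 56.4% lay lower, and of the non-members of similar signal 70.7%, with a median of -0.09. The highest of the 13 probe sets, shared by Mrps27 and 6430562O15Rik, differed by 0.27. The lowest, shared by Mrpl43 and Twnk, lay at 7.57 and 7.50 in Akita and 8.10, 7.86 and 7.63 in WT hearts (difference -0.33). Its signal cannot be assigned to either gene. Processed pseudogenes are known for this family, and their share in a signal was not tested.

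The members were also divided by ancestry, a division drawn up after their values were seen and given as a description. The 42 tested genes with bacterial relatives had a median difference of -0.18 (37 lower), and the 27 found in mitochondria alone -0.17 (23 lower). In the large subunit these medians were -0.17 (26 genes) and -0.22 (17 genes). In the small subunit they were -0.22 (16 genes) and -0.04 (10 genes), and 7 of those 10 genes were lower (70%). Over all genes tested 56.4% lay lower with a median of -0.03, and over the non-members of similar signal 70.7% with a median of -0.09. Subunits go by symbol here, so that Mrps18a and Mrps30 are counted in the small subunit. Genomic spans were short, with a median of 7.94 kb in the members and 20.3 kb over all genes tested. Within the members the difference was weakly related to log span, less negative in longer genes (Pearson's r = 0.28, Spearman's rho 0.31, 70 genes) and had no relation to mean signal (r = -0.05), where points share the same 5 arrays. A head-to-head neighbour, starting within 1 kb upstream on the opposite strand, was found for 23 of 62 members (37.1%) and for 16.9% of the genes tested. Mrpl46 and Mrps11 form such a pair, 42 bases apart, and differed by -0.22 and -0.12.

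Lists of other genes of mitochondrial translation had 0 genes past the adjusted threshold by limma. For these lists the shares to set beside are 56.4% lower and 9.49% lower at an unadjusted p under 0.05 over all genes tested, and 70.7% and 14.2% over the non-members of similar signal. Of 25 genes of mitoribosome assembly and rRNA modification, 21 lay lower (84%), 6 of them at an unadjusted p under 0.05 (24%), with a median of -0.18. Mrm1, a methyltransferase of the large-subunit rRNA, lay at 5.57 and 5.75 in Akita and 6.64, 6.40 and 6.19 in WT hearts (log2 difference -0.75, SE 0.15, limma adjusted p = 0.137). Mrm3, a second methyltransferase of that rRNA, lay at 7.31 and 7.21 in Akita and 7.72, 7.88 and 7.69 in WT hearts (difference -0.50). The Akita arrays of both stood below all WT arrays. Mtg1, a GTPase of large subunit assembly, differed by -0.40 and Mpv17l2, an assembly factor, by -0.39.

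All 14 genes tested from a list of mitochondrial translation factors and related genes lay lower, with a median of -0.14. At an unadjusted p under 0.05, 2 of them were lower (14.3%), a share close to that of the non-members of similar signal. Oxa1l, which inserts newly made proteins into the inner membrane, lay at 10.29 and 10.39 in Akita and 10.85, 10.66 and 10.64 in WT hearts (difference -0.38, limma adjusted p = 0.257). Tufm, the elongation factor that carries aminoacyl-tRNA, lay at 10.27 and 10.13 in Akita and 10.43, 10.68 and 10.50 in WT hearts. Its difference was -0.34, or -0.23 with the mean of all its probe sets. The exchange factor of Tufm, Tsfm, had overlapping groups and differed by -0.24, or by -0.12 without Akita replicate 3. Taco1, a translational activator of cytochrome oxidase, differed by -0.19. Groups did not overlap for Oxa1l, Tufm or Taco1.

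Of 21 aminoacyl-tRNA synthetase and related genes, 17 lay lower (81.0%) with a median of -0.09, the value of genes of similar signal, and 1 at an unadjusted p under 0.05 (4.76%), Sars2 (-0.37). Hars2, Rars2 and Kars, the last shared with the cytosol, differed by -0.36, -0.22 and -0.18, Hars2 by -0.23 without Akita replicate 1 and Rars2 by -0.135 without WT replicate 3. Of 12 genes of mitochondrial transcription and its regulators, 8 lay lower (66.7%) with a median of -0.13, a share under that of the non-members of similar signal, and 2 at an unadjusted p under 0.05 (16.7%). Nrf1, the factor of the site shown above, lay at 6.00 and 6.12 in Akita and 6.52, 6.40 and 6.45 in WT hearts (difference -0.40, SE 0.11, limma adjusted p = 0.215). Polrmt, the mitochondrial RNA polymerase, differed by -0.36 and Tfam by -0.22. Ppargc1b differed by -0.35, but by -0.02 without Akita replicate 1 and by -0.67 without Akita replicate 3, which lay inside the WT range. Of 3 further mitoribosomal proteins named outside the rule, Gadd45gip1 differed by -0.14 (-0.09 without Akita replicate 1), Dap3 by -0.04 and Ptcd3 by 0.02. The 13 proteins encoded in mitochondrial DNA had no probe set with a single symbol here and were not analysed.

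Of 59 cytosolic ribosomal protein genes tested, 33 lay lower and 26 higher, with a median of -0.025, against -0.03 over all genes tested. At an unadjusted p under 0.05, 7 were lower (11.9%) and 2 higher (3.39%), shares near the 9.49% and 4.13% of all genes tested. Among the 7 lower, Rps16 (-0.96) and Rpl6 (-0.63) rest on dim probe sets with WT means of 4.97 and 4.67. Rpl6 differed by -0.39 without Akita replicate 1. Rpl28 lay at 11.45 and 11.54 in Akita and 11.92, 11.87 and 11.83 in WT hearts (-0.38). Rpl9 lay at 8.52 and 8.57, against 7.90, 8.10 and 8.18 (0.49, or 0.28 with the mean of all its probe sets). The gap between the 2 families was not tested. With an intensity trend and a robust prior, Rpl28 had a limma adjusted p of 0.0201.

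**Figure D5:**
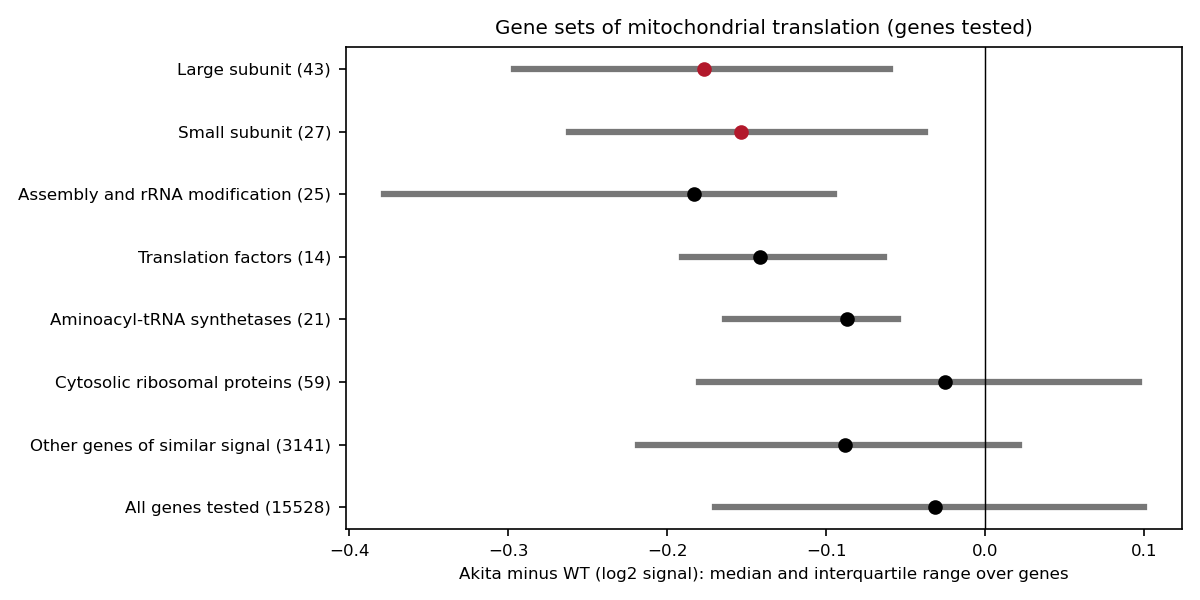
Median (point) and interquartile range over genes (bar) of the log2 difference (Akita minus WT) for 8 gene sets, with the number of genes tested in parentheses. The 2 mitoribosomal subunits (red) stand at -0.18 and -0.15, near assembly factors at -0.18. The set labelled translation factors, which also holds related genes such as Oxa1l, stands at -0.14. Cytosolic ribosomal proteins stand at -0.025 and all genes tested at -0.03.

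Other scalings kept the median of the family below 0 and changed its size. Quantile normalization again left 51 of 70 members lower with a median of -0.12, against -0.03 over all genes tested. Centring the arrays on the genes of similar signal, an alternative chosen after seeing the data, left 47 lower and 22 higher. The family median was then -0.08, and 9 members (12.9%) were lower at an unadjusted p under 0.05. Of all genes tested 5.31% were, and of the non-members of similar signal 8.28%. Under that centring the medians were -0.085 for the large and -0.06 for the small subunit.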

How the data were processed

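Per the labels' protocols, RNA isolated from fresh hearts was labelled with an Affymetrix kit for whole transcripts. The authors deposited 1 log2 signal for each probe set and array, made in Affymetrix Expression Console per the submitters' processing notes. The software version, the summary method and the build were not given in the sources used here, and the log2 scale was inferred from the values. Had the arrays been equalised, a shift common to nearly all genes would be lost, and unremoved background shrinks the differences of dim genes.

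Of 41345 probe sets, 23521 had a single symbol in the platform annotation, 1814 had several and 16010 were not listed. A gene took its probe set of highest mean over the 5 arrays. All 71 members matched RefSeq (GRCm38.p6). limma 3.58.1 (R 4.3.3, lmFit, eBayes) gave two-sided tests of Akita minus WT for 15528 genes, adjusted by Benjamini-Hochberg over all of them at 0.05, with 3 residual and 4.38 prior degrees of freedom. The script was tested on simulated data. No batch is named in the labels. The number of arrays limits precision. Filters, probe set rule, scaling, prior, array weights and threshold were varied, and each array was left out in turn.

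The members and lists were chosen with earlier results of these data known. Named were, per subunit, the 8 members of smallest p and the 3 with the highest and 3 with the lowest signal, any past the threshold, any with non-overlapping groups and a difference of at least 0.5, Mrps18a, Mrps18b, Mrps18c, Mrps30, Mrps36 and Mrpl12, and the 4 genes of smallest p in each list. Other genes, the motifs and the division by ancestry were chosen after values were seen. Figures used Python 3.11.15 and matplotlib 3.10.9.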

Additional observations from a re-analysis of the deposited data

How the results depend on the processing

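No member passed the adjusted threshold of 0.05 by limma under any alternative run. The smallest limma adjusted p among members was 0.0519, with an intensity trend and a robust prior. Under that setting 24 members (34.3%) were lower at an unadjusted p under 0.05, where 10.7% of all genes tested were. Of the non-members of similar signal 17.6% were. All genes called numbered 51 (33 higher and 18 lower), and 86 without a filter on dim genes, 197 with the trend and robust prior (60 higher and 137 lower), 28 with array weights, 96 at a threshold of 0.1, and 30 with the arrays centred on the genes tested or on the genes of similar signal (25 higher and 5 lower under both, which were added after seeing the data). They numbered 34 higher and 26 lower with each array centred on its median over all probe sets with 1 symbol, and 23 higher and 18 lower with quantile normalization again. At the filter on the 50th percentile they numbered 20 higher and 28 lower, without a filter 68 and 18, with array weights 20 and 8, and at the threshold of 0.1 they were 49 and 47. With an array left out they ran from 9 to 44, as 41 higher and 3 lower without Akita replicate 1, 10 and 1 without Akita replicate 3, 9 and 0 without WT replicate 3, 14 and 0 without WT replicate 4, and 19 and 2 without WT replicate 5. The cause was not tested. The large and small subunit medians were -0.18 and -0.15. They were -0.135 and -0.086 with quantile normalization again, -0.218 and -0.195 centred on all probe sets with 1 symbol, -0.0825 and -0.0592 centred on the genes tested, and -0.085 and -0.0617 centred on the genes of similar signal. With an array left out they ran from -0.20 to -0.16 for the large and from -0.195 to -0.0967 for the small subunit, and the gap between them from -0.075 to 0.035. Members lower numbered 61, from 45 centred on the genes tested to 67 centred on all probe sets with 1 symbol, and 54 to 64 with an array left out. Those lower at an unadjusted p under 0.05 numbered 16 (22.9%, against 9.49% of all genes tested). With the 2 added centrings they numbered 8 and 9 (11.4% and 12.9%), where 5.11% and 5.31% of all genes tested were. With a WT array left out they numbered 9 to 16, with 9 (12.9%) without WT replicate 4, where 5.65% of all genes tested were. The added centrings moved the median of all genes tested to 0.0625 and 0.06. Differences near 0 turned under some settings. Mrps18c became -0.16 and Ptcd3 -0.086 with the mean of all probe sets, and -0.038 and -0.02 centred on all probe sets with 1 symbol. With quantile normalization again, Mrps18b became 0.038, Mrpl12 0.018 and Dap3 0.034. Centred on the genes tested, Mrpl39 became 0.0042, Mrpl48 0.031, Mrps23 0.059, Mrps18b 0.056, and Mrpl12 and Dap3 0.0525. Centred on the genes of similar signal, they became 0.0017, 0.028, 0.057, 0.053, 0.05 and 0.05. With an array left out the ranges were -0.077 to 0.083 for Mrps18c, -0.105 to 0.05 for Mrps18b, -0.147 to 0.063 for Mrpl12, -0.107 to 0.023 for Dap3, -0.085 to 0.02 for Mrps23 and -0.01 to 0.045 for Ptcd3. No paired analysis was possible because the groups share a single replicate number (3). With an Akita array left out, the remaining one was assumed to vary like the others.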
